A study of Mus musculus with 12 samples.

Results

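The response of undifferentiated cells to BIGH3 was measured in 6 of the 12 RNA-seq libraries of the series, 3 from treated cells and 3 from controls. These are the libraries whose titles name BIGH3 treatment or control without differentiation, and estimated reads were compared per gene and per transcript. The cells are labelled as wild-type MLO-Y4, a mouse line kept as a model of osteocytes, the cells embedded in bone matrix. BIGH3, also called TGFBI or keratoepithelin, is a secreted matrix protein, and the treated cultures received it as recombinant human protein. All cultures grew on type I collagen at 0.15 mg/mL. The remaining 6 libraries, BIGH3 and control again, came from cells in differentiation medium that held serum (10%), β-glycerophosphate (4 mM) and ascorbic acid (50 µg/mL). The stated question was what BIGH3 does to Gja1. Dose, time after addition and control vehicle are not stated in those labels. The general protocol also mentions HCQ and antibodies to BIGH3, which no sample's title or characteristics name, and whether any culture received them is not stated. Nothing states whether replicate libraries stand for independent cultures. The p-values therefore measure the spread between these libraries, which may be technical.

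BIGH3 carries fasciclin domains and a motif that integrins bind, and cells attach to it through integrins. Signals from integrins and growth factor receptors pass through the MAPK cascade to immediate early genes, which are transcribed within minutes without new protein synthesis. Their products include the AP-1 factors of the Fos and Jun families and the EGR zinc fingers, while dual-specificity phosphatases and Sprouty proteins shut the cascade down again.

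Depth was 20999664 to 23927498 estimated reads in the treated libraries and 20545484 to 27612155 in the controls. Dmp1, an osteocyte matrix gene, stood at 51.7 to 61.9 CPM (read counts scaled to the size of each library), Phex, an endopeptidase gene of phosphate control, at 7.21 to 9.19 and Pdpn, of early osteocyte dendrites, at 184 to 202 CPM. Sost and Fgf23, which mark mature osteocytes, had 0 reads in all 6 libraries, and Mepe had 7 reads in all. Of the osteoblast genes, Col1a1 stood at 2383 to 3049 CPM, Runx2 at 46.1 to 53.4 and Bglap at 1.92 to 3.32 CPM. Alpl stood at 0.207 to 1.39 CPM and Sp7 at 0.124 to 0.409, and Ibsp had 3 reads in all. Afp, a fetal liver gene, stood at 63.3 CPM in control 2 and 11.2 CPM in BIGH3 1, against 1.24 to 2.81 CPM in the other 4. The summed level of 22 liver markers was 137 CPM in control 2 and 36.2 CPM in BIGH3 1, against 16.4 to 20.3 CPM elsewhere. In differentiated cells the libraries BIGH3 3 and control 2 carried liver transcripts too, and values without these libraries are given below.

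Few genes responded to BIGH3 in undifferentiated cells. Of 14711 genes tested with edgeR's quasi-likelihood test, 3 (0.0204%) were called at an adjusted p below 0.05 (the meaning of called below, unless another tool is named), 1 higher (0.0068%) and 2 lower (0.0136%), against 6687 (45.5%) in differentiated cells. The same fit called 4730 genes (32.2%) as responding differently in the 2 states. An unadjusted p below 0.05 was reached by 599 genes (4.07%). Intervals were narrow enough to bound the effect for most expressed genes. Among 10904 genes with a mean of at least 2 log2 CPM, the 95% interval of the fold change lay within 1.5-fold for 97% and within 2-fold for 99%. Among the 3807 weaker genes it lay within 2-fold for 37.1%. The treated libraries did not stand apart as a group. The root mean square log2 difference between libraries was 0.444 to 0.604 over the 9 pairs of a treated and a control library and 0.471 to 0.623 over the 6 pairs within a group. The called genes were Fosb and Egr1, both lower and both immediate early genes, and 3110045C21Rik, a noncoding RNA gene that was higher.

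**Figure D1:**
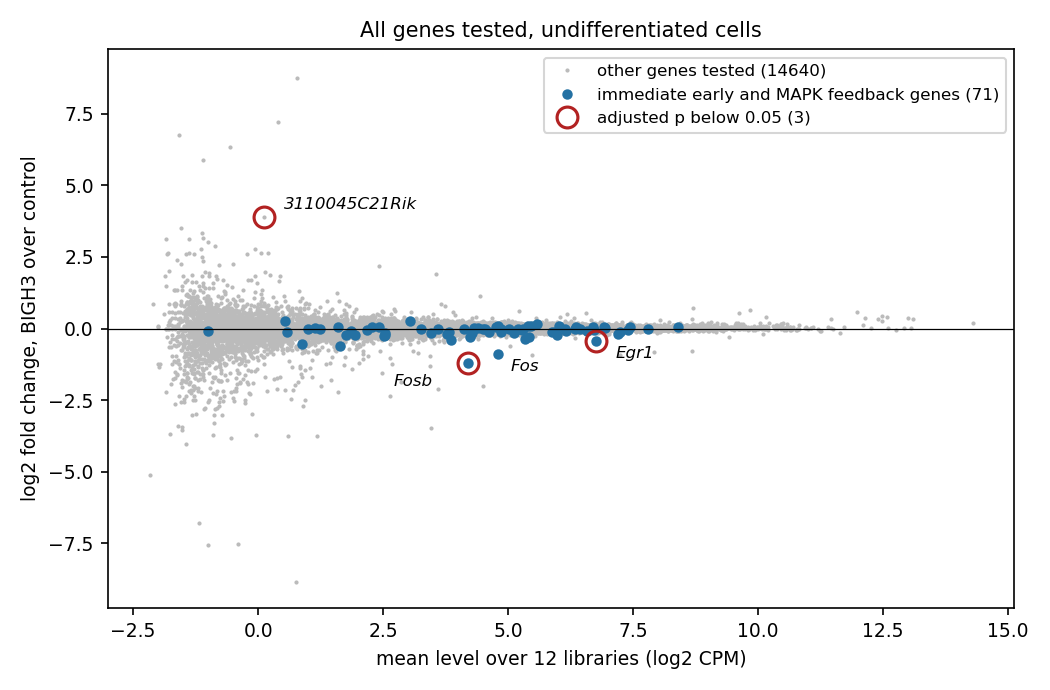
Log2 fold change of BIGH3 over control in undifferentiated cells against mean level for the 14711 genes tested, 1 point per gene, with the 71 immediate early and MAPK feedback genes in blue and the 3 called genes ringed. Points fan out at low levels and lie close to 0 at high levels, where Fosb, Fos and Egr1 sit below the cloud.

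Fosb encodes a Fos family subunit of AP-1 (ENSMUSG00000003545.3, GRCm38 chromosome 7, 19302696 to 19310051, minus strand). It measured 43.5, 41.9 and 36.5 CPM in controls 1, 2 and 3 and 22.5, 16.9 and 14.0 CPM in BIGH3 1, 2 and 3. All treated libraries lay below all controls, and BIGH3 1 was the highest of the treated. The gene fell 2.28-fold, with a log2 fold change of -1.19 ± 0.15 (SE, n = 3 per group, 95% interval -1.51 to -0.87, edgeR adjusted p = 0.0214). Egr1, a zinc finger factor induced by serum and growth factors (ENSMUSG00000038418.7, chromosome 18, 34859823 to 34864984, plus strand), measured 224, 229 and 197 CPM in controls and 151, 175 and 157 CPM with BIGH3. The groups did not overlap here either, and the fall was 1.34-fold (log2 -0.43 ± 0.06, interval -0.56 to -0.29, edgeR adjusted p = 0.0214). In level per length, Fosb went from 17.1 to 7.57 TPM and Egr1 from 107 to 76.8 TPM. The Fosb difference lay at -1.40 to -1.04 on the log2 scale over all alternatives and that of Egr1 at -0.49 to -0.34. The calls themselves were lost under many of these alternatives. Without undifferentiated control 1 both ended (adjusted p = 0.241 each), as they did without control 2 (0.133 for Fosb, 0.166 for Egr1). Fosb also lost its call without BIGH3 2 (0.212) and Egr1 without BIGH3 1 (0.0842) or BIGH3 3 (0.172). Leaving out a differentiated library, which alters the shared spread and the number of genes tested (15054 to 15129), ended both calls for BIGH3 1 (0.0964 each), control 1 (0.0954 and 0.0757), control 2 (0.0643 each) and control 3 (0.0668 each), and that of Fosb for BIGH3 2 (0.0767). With the 3 libraries highest in liver transcripts left out, the log2 fold changes were -1.17 and -0.39 (adjusted p = 0.254 and 0.148), and with all 4 left out Egr1 was at -0.34 (0.176). With the undifferentiated libraries alone the adjusted p was 0.852 for Fosb and 0.125 for Egr1.

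Fos and Zfp36 followed the same layout without passing the threshold. Fos, the founding AP-1 subunit, measured 73.1, 68.7 and 62.2 CPM in controls and 47.7, 33.0 and 30.1 CPM with BIGH3, so that every treated library was below every control. Its log2 fold change was -0.88 ± 0.16 (interval -1.22 to -0.53) with an edgeR adjusted p = 0.485. BIGH3 1 was again the highest treated library, and without it Fos was called at -1.11 (adjusted p = 4.88e-06), as it was without the 4 libraries with liver transcripts at -1.10 (5.32e-06). Zfp36, which encodes tristetraprolin, a protein that speeds the decay of AU-rich mRNAs, measured 77.4, 73.8 and 77.0 CPM against 62.3, 60.2 and 53.7 CPM, a log2 fold change of -0.37 ± 0.07 (adjusted p = 0.101). DESeq2 called both genes, Fos at an adjusted p = 1.02e-04 and Zfp36 at 0.00667.

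**Figure D2:**
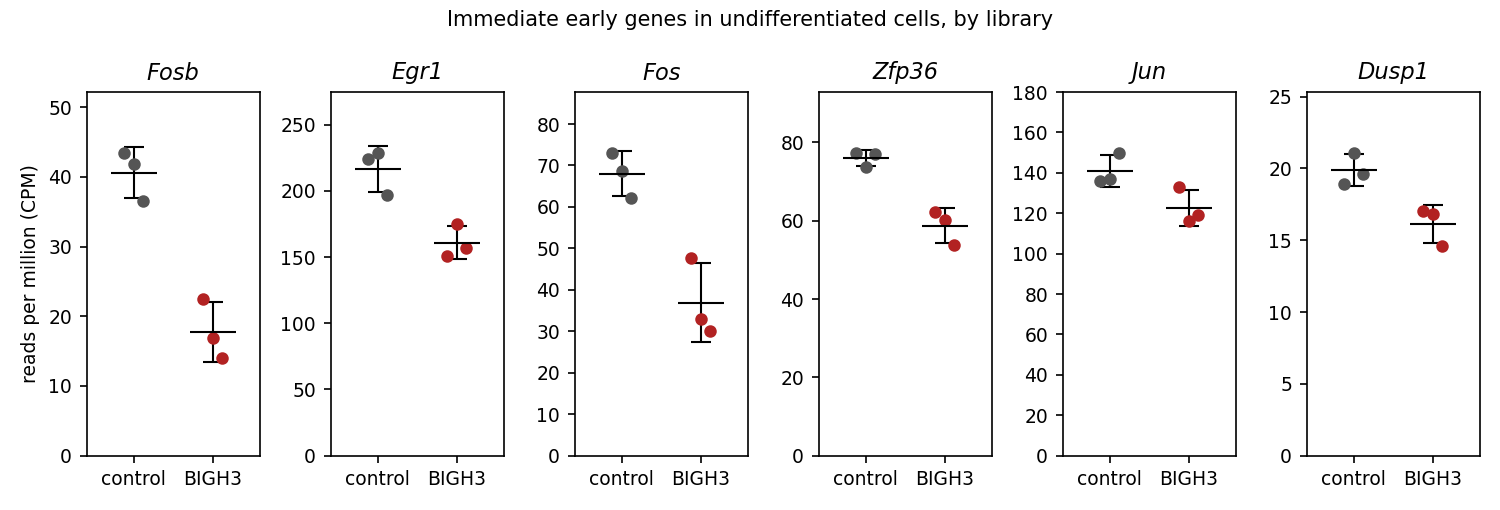
Level of 6 immediate early and feedback genes in each undifferentiated library, in CPM on axes that start at 0, with 1 point per library and the mean with its SD (n = 3) in black. The 3 BIGH3 libraries lie below the 3 controls in each panel, with the widest gap in Fosb and Fos and the narrowest in Jun, where the highest BIGH3 library reached 133 CPM and the lowest control 136 CPM.

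The AP-1 factors tested lay on the low side, though the intervals of Fosl1, Fosl2, Junb and Atf3 included 0. Of 12 AP-1 and ATF3 factor genes 10 were tested, and all 10 had a log2 fold change below 0, with a median of -0.20 against a median of -0.00 over all genes tested. Fosb was the only called member. An unadjusted edgeR p below 0.05 was reached by 4 of the 10, all lower, against 1.87% of all genes tested that were lower at such a p. In 4 every treated library lay below every control, against 4.37%. The count below 0 was 8 or 9 of 10 when an undifferentiated library other than BIGH3 1 was left out, and 9 of 10 on the TPM scale, where the median was -0.17 and that of all genes tested -0.06. The median was -0.31 without BIGH3 1, -0.10 without BIGH3 2 and -0.12 with length offsets. Jun measured 136, 137 and 150 CPM in controls and 133, 116 and 119 CPM with BIGH3 (log2 -0.20 ± 0.06), and Jund 70.1, 67.5 and 78.3 against 71.2, 53.4 and 60.9 CPM (log2 -0.22 ± 0.10). Jun did not overlap between the groups and Jund did, since BIGH3 1 lay above 2 of the controls. Fosl2 and Junb had log2 fold changes of -0.06 ± 0.05 and -0.11 ± 0.13, and Atf3 stood at 0.654 CPM or less in every library.

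Over the AP-1 factors, the EGR, NR4A and KLF factors, other immediate early genes and MAPK feedback genes together, 71 of 76 genes were tested. Of these, 48 (67.6%) had a log2 fold change below 0, against 50.1% of all genes tested, and the median was -0.03. In 14 (19.7%) every treated library lay below every control, against 4.37% of all genes tested. In 4 (5.63%) every treated library lay above, against 4.59%. The set holds the called Fosb and Egr1, and its members were chosen with earlier results of these data known. Over the alternatives that tested all 71 the count below 0 ran from 41 without BIGH3 3 (42 without BIGH3 2 or with length offsets) to 54 without all 4 liver-bearing libraries and 58 on the TPM scale. Nr4a1, an orphan nuclear receptor induced early, measured 7.55, 8.99 and 10.7 CPM in controls and 7.13, 7.16 and 6.46 CPM with BIGH3, a log2 fold change of -0.40 ± 0.13 with no overlap. Nr4a2, by contrast, was at 0.07 ± 0.15. The EGR relatives Egr2 and Egr3 were at -0.19 ± 0.10 and -0.04 ± 0.16, and the Krüppel-like factor Klf4 was at 0.06 ± 0.07.

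Feedback genes of the cascade were spread around 0, with 10 of 16 tested below it. Dusp1, a phosphatase of the MAP kinases, measured 18.9, 21.1 and 19.6 CPM against 17.0, 16.8 and 14.6 CPM with BIGH3 (log2 -0.30 ± 0.10). Etv4, an ETS factor induced by ERK signalling, measured 4.45, 3.11 and 3.70 against 3.04, 2.11 and 2.20 CPM (log2 -0.61 ± 0.21). Both sets of libraries were apart, and neither gene was called. Dusp6, the phosphatase most often read as an ERK reporter, measured 37.2, 34.0 and 36.7 against 36.2, 35.9 and 34.4 CPM and had a log2 fold change of -0.02 ± 0.07. Of the remaining members with the smallest p, the leucine zipper factor Nfil3 had a log2 fold change of -0.17 ± 0.07, the matricellular gene Ccn1 one of -0.11 ± 0.05 and the inhibitor of differentiation Id2 one of 0.15 ± 0.07. Fosl2, Junb, Atf3, Nr4a2, Egr2, Egr3, Klf4 and Dusp6 are outside the rule for named genes and were chosen after their values were seen.

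The promoters of the Fos family pair are shown because these genes had the lowest log2 fold changes of the class. Each run holds the 250 bases before the start of the gene in RefSeq (GRCm38.p6), 5′ to 3′ on the gene's strand, with the TATA box letters TATAAA in capitals where they occur.
Fosb promoter, chr7:19310046-19310295, minus strand: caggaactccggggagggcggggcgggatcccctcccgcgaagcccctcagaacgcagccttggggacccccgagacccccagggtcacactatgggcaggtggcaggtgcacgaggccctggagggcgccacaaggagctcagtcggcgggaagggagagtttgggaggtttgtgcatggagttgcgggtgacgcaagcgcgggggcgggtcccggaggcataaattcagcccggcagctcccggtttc
Fos promoter, chr12:85473640-85473889, plus strand: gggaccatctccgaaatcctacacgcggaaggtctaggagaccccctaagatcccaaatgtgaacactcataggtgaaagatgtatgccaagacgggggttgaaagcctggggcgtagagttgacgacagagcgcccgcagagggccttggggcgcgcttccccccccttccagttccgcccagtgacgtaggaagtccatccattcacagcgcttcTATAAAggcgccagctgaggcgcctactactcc
Motifs were searched in windows of 300 bases, 250 before and 50 after each start, in 32851 promoters, and 59 of the 76 genes matched with 76 promoters between them. The CArG box, to which serum response factor binds, was searched on both strands by its consensus. It lay in 7 of the 76 promoters (9.21%), against 1.63% of all. These promoters belong to Zfp36, Egr2, Srf and Dusp5, none of which was called. Whether the called Egr1 was among the 59 matched genes was not recorded, so nothing is said of its promoter here. The cyclic AMP response element TGACGTCA (both strands) lay in 6 (7.89%), against 1.79%, with Dusp1 among them. The AP-1 site TGANTCA (both strands) lay in 2 (2.63%), against 7.81%, and TATAAA (gene strand) in 9 (11.8%), against 8.32%. The EGR site GCGTGGGCG (both strands) lay in 2 (2.63%), against 0.612%. Some genes have several promoters in these counts, so they are not independent. For Zfp36 the window holds 1 CArG box, in capitals below. The windows of Fosb and Fos hold none, and bases further upstream were not searched.
Zfp36 CArG box, chr7:28379267-28379296, minus strand: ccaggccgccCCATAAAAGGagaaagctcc

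Transcript models split these falls in 2 ways. Fosb-204, a retained-intron transcript, measured 15.9, 17.2 and 13.9 CPM in controls and 8.74, 4.94 and 4.04 CPM with BIGH3, a log2 fold change of -1.40 ± 0.32 with no overlap between the groups. The coding transcripts Fosb-201 and Fosb-205 swung between libraries, and where 1 was high the other was mostly low. Fosb-201 measured 22.5, 2.25 and 11.6 CPM in controls and 2.42, 10.4 and 9.24 CPM with BIGH3, while Fosb-205 was at 0, 20.2 and 9.14 against 10.4, 0 and 0 CPM. These models are 3782 and 3654 bases long and overlap over nearly all of the gene, and reads shared by several transcripts are divided by a model in the deposited estimates. Both had lower means with BIGH3, 7.36 against 12.1 CPM for Fosb-201 and 3.47 against 9.78 CPM for Fosb-205. The weak coding Fosb-206 was at 0.29 against 0.237 CPM. The lower gene total therefore did not lie in Fosb-204 alone. Egr1-202 measured 181, 193 and 169 CPM against 125, 139 and 133 CPM (log2 -0.45 ± 0.07, adjusted p = 0.586 over transcripts), and Egr1-201 had a log2 fold change of -0.19 ± 0.25. For Zfp36, the transcript Zfp36-202 measured 53.7, 49.8 and 52.5 CPM against 41.8, 40.4 and 36.9 CPM, and Zfp36-201 18.9, 20.3 and 21.9 against 18.2, 16.9 and 14.4 CPM. edgeR called no transcript of these genes, while DESeq2 called Fosb-204 (adjusted p = 0.00805) and Egr1-202 (3.12e-06).

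The gene called higher, 3110045C21Rik (ENSMUSG00000097503.2, chromosome 1, 169969409 to 169972396, plus strand), is annotated as an antisense RNA. It was read at 0, 0.245 and 0 CPM in controls and 1.30, 1.45 and 1.08 CPM with BIGH3, from 6 and 89 estimated reads in all. Every treated library was above every control, and the log2 fold change was 3.88 ± 0.63 (interval 2.56 to 5.21, edgeR adjusted p = 0.0327). The gene shares 90 bases with Ddr2, a collagen receptor gene on the opposite strand, and lies 167 bases from Hsd17b7 of sterol synthesis, also on the opposite strand. Reads of overlapping genes cannot be told apart without the strand of the libraries, which is not given. Ddr2 and Hsd17b7 themselves had log2 fold changes of 0.02 ± 0.05 and 0.03 ± 0.07. All 6 control reads lay in control 2, and the fitted value ran from 1.53 on log2(TPM + 0.5) to 7.88 over the alternatives. The call ended without any 1 of BIGH3 1, 2 or 3 (adjusted p = 0.0842, 0.192 and 0.159), control 1 (0.241) or control 3 (0.191), and without any 1 differentiated library (0.0954 to 0.115). Length offsets (0.392), fitting without robust weights (0.173) and the undifferentiated libraries alone (0.436) ended it too.

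Gja1, the gene of connexin 43, through which osteocytes couple to their neighbours, measured 135, 132 and 134 CPM in controls and 130, 144 and 142 CPM with BIGH3. BIGH3 1 lay below all controls and the other two above. The 95% interval of its log2 fold change ran from -0.05 to 0.15 (estimate 0.05, reversed to -0.03 on the TPM scale), so a rise above 1.5-fold lies outside it. Its main transcript Gja1-201 was at 0.06 ± 0.04. Of 19 connexin and pannexin genes 8 were tested and none was called, against 0.0204% of all genes tested, with 4 above and 4 below 0. Panx3, the skeletal pannexin, measured 13.6, 14.7 and 12.8 against 14.3, 15.8 and 14.6 CPM (log2 0.12 ± 0.10). Gjb1 came from 25 and 7 reads in all, with an interval from -5.26 to 1.79, and no difference was detectable at this depth. Of 11 scaffold and adhesion partners of gap junctions none was called, with 3 above and 8 below 0 and a median of -0.01.

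Genes around the added protein were flat as well. Endogenous Tgfbi measured 36.3, 34.4 and 33.2 CPM in controls and 35.9, 33.0 and 35.3 CPM with BIGH3, with an interval from -0.11 to 0.13. Postn, the other fasciclin-domain matrix gene of bone, measured 735, 752 and 771 against 756, 782 and 762 CPM (log2 0.03 ± 0.04). Of 20 integrin subunit genes 18 were tested with 0 called, against 0.0204% of all genes tested. Among those known to bind BIGH3 in other cells, Itgav lay at 0.06 ± 0.05, Itgb1 at 0.00 ± 0.05, Itgb3 at -0.03 ± 0.09, Itgb5 at 0.01 ± 0.07 and Itga3 at -0.07 ± 0.05, the widest interval being that of Itgb3, -0.21 to 0.15. The signs of Tgfbi, Postn and these subunits, Itga3 apart, turned under 1 or more alternatives, with values between -0.10 and 0.06. Of 30 TGF-beta target genes 29 were tested and none was called (median 0.01), and neither were 24 focal adhesion genes (median -0.02) or 27 YAP and SRF targets (median -0.03).

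Apoptosis genes did not pass the test either, where 0.0204% of all genes tested did. Of 32 pro-apoptotic genes tested 14 lay above and 18 below 0, and of 13 anti-apoptotic genes 6 and 7. Bax, an executioner of mitochondrial permeabilisation, measured 101, 84.8 and 93.8 against 99.1, 93.2 and 102 CPM. Bcl2, its inhibitor, measured 12.9, 11.6 and 12.1 against 14.5, 14.4 and 13.0 CPM, a log2 fold change of 0.20 ± 0.10 whose interval ran from -0.01 to 0.40. The groups of Bcl2 did not overlap, while those of Bax did.

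Of the 38 lists other than the early response genes, none held a called member, where 0.0204% of all genes tested were called. Mitochondrially encoded genes had the highest median among the lists of the cell's own functions, at 0.32, with 13 of 15 above 0. The summed level was 44099, 43697 and 37150 CPM in controls and 40942, 55523 and 49339 CPM with BIGH3, so BIGH3 1 lay among the controls and the other two treated libraries above them. Without BIGH3 2 the median dropped to 0.13. mt-Nd3, of respiratory complex I, measured 469, 446 and 408 against 494, 756 and 677 CPM (log2 0.54 ± 0.21). mt-Nd1, of the same complex, had a log2 fold change of 0.37 ± 0.14 and mt-Nd6 one of 0.53 ± 0.18, while mt-Co2, chosen after its value was seen, was at -0.31 ± 0.35. Ribosomal protein genes lay just above 0 in 53 of 54 cases, with a median of 0.09. In 14 of the 54 every treated library lay above every control, against 4.59% of all genes tested. The count above 0 was 45 without control 3. Their sum was 41384, 40656 and 41200 CPM in controls and 42858, 44393 and 44354 CPM with BIGH3, with no overlap. On the TPM scale 41 of 54 were above 0 and the median was 0.05, while the median of all genes tested there was -0.06. With length offsets 53 of 54 were above 0 and the median was 0.12. Shorter genes lay slightly higher in these libraries, with a median log2 fold change of 0.021 in the fifth of genes with the shortest effective length (0.018 without ribosomal protein genes) against -0.001 in the longest. The part of gene length in the ribosomal values was not tested.

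Cell cycle genes of the G2/M phase lay above 0 in 33 of 40 cases, with a median of 0.06. Mki67, the proliferation antigen, measured 93.9, 86.4 and 88.4 CPM in controls and 97.1, 114 and 94.1 CPM with BIGH3 (log2 0.18 ± 0.06), and Ccna2, cyclin A, 62.8, 61.8 and 59.8 against 68.6, 68.1 and 66.6 CPM (0.14 ± 0.05). Both were apart and not called. In 2 of the 40 genes every treated library lay above every control, against 4.59% of all genes tested. The count above 0 was 25 of 40 without BIGH3 2. On the TPM scale it was 14 of 40 with a median of -0.03, where 4109 of the 14711 genes tested were above 0. Of 37 inflammatory genes tested 23 were above 0, with a median of 0.01. The complement gene C3 measured 336, 336 and 367 CPM in controls and 396, 378 and 395 CPM with BIGH3 (log2 0.17 ± 0.05), and the neutrophil chemokine Cxcl5 6.05, 4.86 and 6.32 against 6.89, 9.13 and 8.29 CPM (0.49 ± 0.21). Treated libraries were above controls for both, with small gaps, and in 3 of the 37 inflammatory genes in all, against 4.59% of all genes tested. Osteoblast genes (28 tested) had a median of -0.03, interferon-stimulated genes (43 tested) of -0.01 and matrix genes (38 tested) of -0.00.

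**Figure D3:**
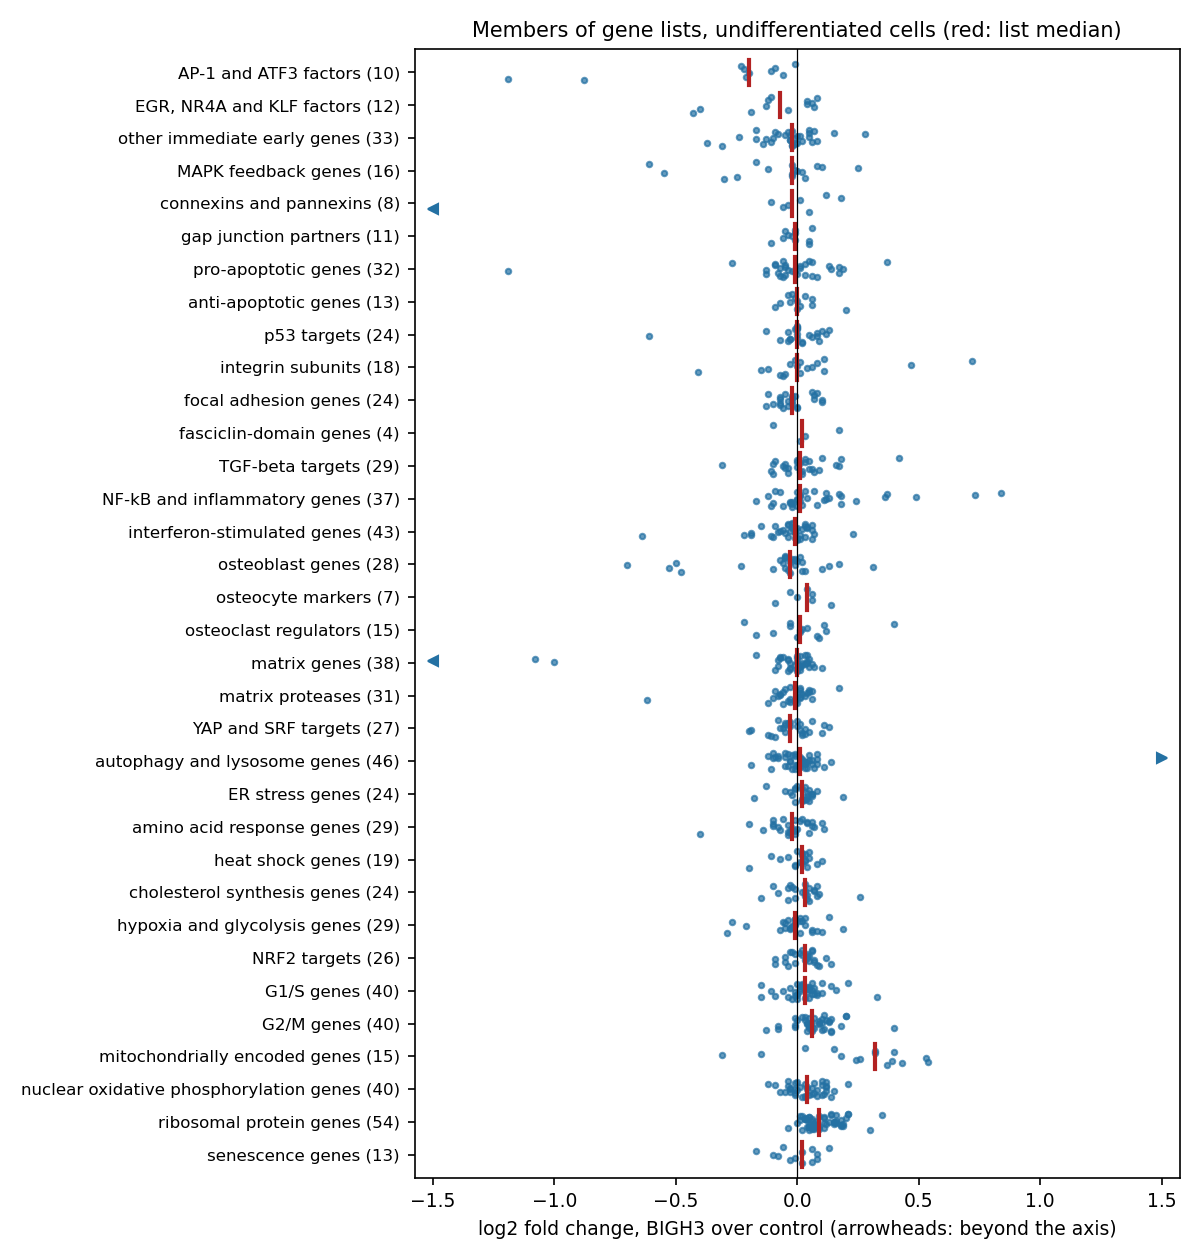
Log2 fold change of BIGH3 over control in undifferentiated cells for the tested members of 34 gene lists, 1 point per gene, with the list median as a red bar, the number tested in brackets and arrowheads for values beyond the axis. AP-1 factors lie to the left of 0 with a median of -0.20, mitochondrially encoded genes to the right with 0.32, and the other medians lie between -0.07 and 0.09.

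Several genes outside the lists had groups that did not overlap and were not called by edgeR with all libraries. DESeq2 called Ramac (adjusted p = 0.0361) and Mical3 (0.00552), edgeR without the low-count filter called Ramac, Polr2k, Mthfd2l and Nutf2 (6.03e-09 to 0.0152), and leaving out BIGH3 2 called Nutf2 (0.00927). Ramac, of the mRNA cap methyltransferase, measured 45.9, 49.2 and 49.6 CPM in controls and 55.7, 61.7 and 59.8 CPM with BIGH3 (log2 0.29 ± 0.06, adjusted p = 0.211). Polr2k, a small subunit shared by the RNA polymerases, measured 14.1, 16.0 and 14.6 against 18.0, 22.2 and 19.6 CPM (0.42 ± 0.10). Bmp1, the protease that trims procollagen, measured 132, 127 and 126 against 115, 114 and 112 CPM (-0.18 ± 0.04). The lowest of these values was that of Mical3, of an actin-oxidising enzyme, at 14.9, 16.9 and 8.59 against 6.28, 5.48 and 4.52 CPM (-1.30 ± 0.34), where control 3 was close to the treated libraries. Vegfc, a lymphatic growth factor, had a log2 fold change of -0.65 ± 0.22. Mthfd2l, Lrch2, Ube2k, Rida, Sypl and Prrg1 had values between 0.16 and 0.37, Nutf2 one of 0.79 ± 0.19, Saa3 one of 0.73 ± 0.43, Cmc4 one of 0.44 and Ifitm6 one of 0.41. On the other side, Chil1, Rasl11a, Dbndd2 and Rab3il1 lay between -0.95 and -0.49. Such separation was found in 675 genes upward and 643 downward of the 14711.

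At the level of transcripts 2 of 41269 (0.00485%) were called, 1 higher and 1 lower (0.00242% each), with 1409 (3.41%) at an unadjusted p below 0.05. Tcf3-207, a coding transcript of Tcf3 (ENSMUST00000105343.8, chromosome 10, 80409547 to 80433647, minus strand), had 0 reads in all 3 controls and 16.9, 13.7 and 15.1 CPM with BIGH3. Against a floor of 3 reads over the controls it was at least 399-fold higher (adjusted p = 0.0177, floor and ratio covering counting error only). Tcf3 encodes E proteins, partners of tissue-specific basic helix-loop-helix factors. The model Tcf3-209 showed the reverse, with 27.8, 25.1 and 31.1 CPM in controls and 0 in all treated libraries (adjusted p = 0.930), and Tcf3-210 had 0 in all controls and 12, 14.9 and 19.5 CPM with BIGH3 without being called. The gene as a whole measured 80.9, 81.1 and 81.6 CPM in controls and 84.6, 71.3 and 74.4 CPM with BIGH3 (log2 -0.08 ± 0.06).

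The 6 coding models of Tcf3 share 14 exons and differ, besides their ends, at 3 places. They use either of a pair of exons, at chr10:80410398-80410624 or chr10:80412827-80413062, and at a pair of other exons they keep or skip 3 bases at the boundary. On the minus strand Tcf3-204, at 3.07 CPM or less, starts 3 bases later in the exon at chr10:80410398-80410624 and is left out of its sum. The junction sequences are shown because the optional bases, besides the exon pair and the ends, tell the models apart. The optional bases are in capitals (GENCODE M21 transcripts, 5′ to 3′).
Tcf3-206, first boundary with the bases: ggtctccatggcctgCAGagcaagatggag
Tcf3-207, first boundary without them: ggtctccatggcctgagcaagatggag
Tcf3-207, second boundary with the bases: cagatggtggcctggCAGatactcagccga
Tcf3-209, second boundary without them: cagatggtggcctggatactcagccga
Summed over the models that share each choice, the groups came much closer. Models with the exon at chr10:80410398-80410624 came to 44.6, 48.6 and 47.6 CPM in controls and 47.8, 39.6 and 40.7 CPM with BIGH3, and those with its alternative to 26.7, 26.3 and 26.0 against 31.7, 26.2 and 26.9 CPM. Models with the first optional bases came to 46.3, 49.9 and 45.6 against 51.6, 38.2 and 35 CPM, and with the second to 26.7, 26.3 and 26.0 against 36.6, 24.9 and 22.6 CPM. The groups overlapped in all 4 of these sums. Without the first bases the sums were 27.8, 25.1 and 31.1 against 28.9, 28.6 and 34.6 CPM, overlapping again. Without the second they were 47.3, 48.8 and 50.7 CPM in controls and 43.9, 41.8 and 47.0 CPM with BIGH3, where the groups did not overlap, the highest BIGH3 library lying just under the lowest control.

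**Figure D4:**
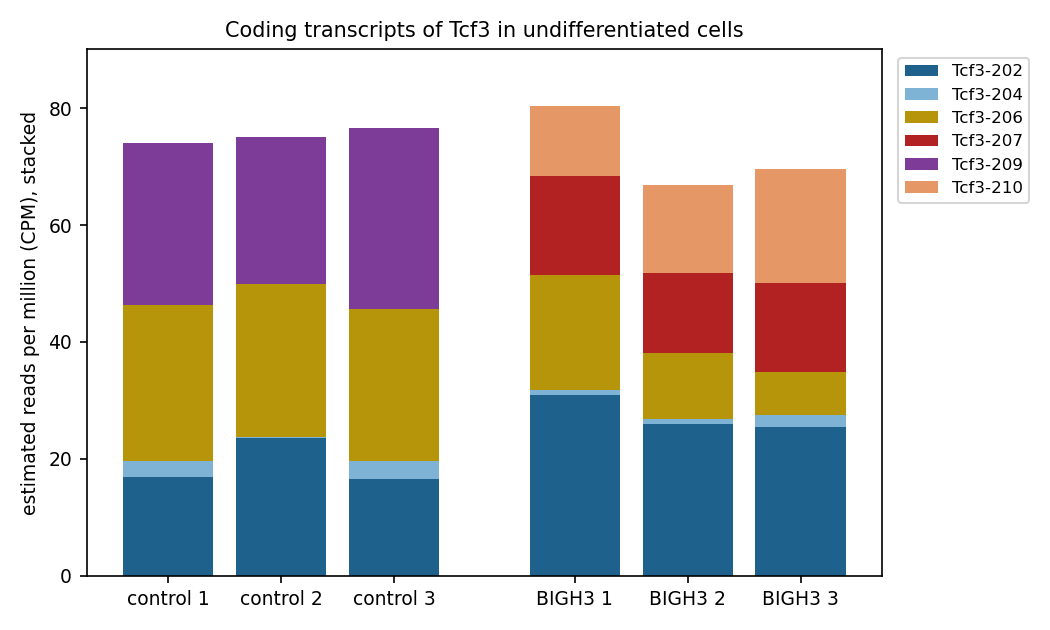
Estimated reads of the 6 coding transcripts of Tcf3 in the 6 undifferentiated libraries, in CPM, stacked so that the bar height is their sum. Tcf3-209 (purple) fills 25.1 to 31.1 CPM of each control and is missing with BIGH3, where Tcf3-207 (red) and Tcf3-210 (orange) stand in its place, while the sums stay at 66.8 to 80.5 CPM.

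Wnk1-206, a retained-intron model of the kinase gene Wnk1, a regulator of ion transport, showed the opposite switch. It had 2.82, 2.41 and 2.50 CPM in controls and 0 reads with BIGH3 (edgeR adjusted p = 0.0280). Against a floor of 3 reads over the treated libraries it was at least 62.5-fold lower. Floor and ratio cover counting error only, not the division of shared reads between models. Wnk1-211, another retained-intron model, had 0 in all controls and 2.19, 1.87 and 1.43 CPM with BIGH3 and was not called. Wnk1 itself measured 365, 381 and 391 against 393, 397 and 392 CPM. In 48 of the 41269 transcripts tested all libraries of 1 group were at 0 and all of the other at 1 CPM or more, 17 present with BIGH3 and 31 present in controls. They belonged to 40 genes, each with several tested transcripts, none called as a gene, and the largest gene-level log2 change among them was 0.24 in size. The coding transcript Nrp2-204 of neuropilin 2, chosen after its values were seen, measured 5.89, 5.63 and 5.43 CPM in controls and 12.4, 13.6 and 13.6 CPM with BIGH3 (log2 1.22 ± 0.19, adjusted p = 0.586), with a gene total at 0.01 ± 0.07. Transcript estimates varied far more between libraries than gene sums, with a coefficient of variation of 59.8% against 8.18%, and DESeq2 called 167 transcripts. The Tcf3-207 call ended without BIGH3 1 (0.053), without differentiated control 2 (0.0732) and without the 3 (0.192) or 4 (0.345) libraries with liver transcripts. That of Wnk1-206 ended when BIGH3 1 (0.0762) or 2 (0.0537) was left out, or control 2 (0.0579) or 3 (0.0609), without 5 of the 6 differentiated libraries (0.0622 to 0.100) without the 3 (0.386) or 4 (0.356) with liver transcripts and with the undifferentiated libraries alone (0.207).

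In differentiated cells the early response genes did not share 1 pattern. Egr1 had nearly the same log2 fold change in both states, -0.43 and -0.39 ± 0.08 (adjusted p = 0.000555 in differentiated cells), and the difference was 0.04 ± 0.10 with an interval from -0.18 to 0.25. Its level was lower there, 30.3, 29.2 and 29.0 CPM in controls and 23.0, 24.3 and 20.3 CPM with BIGH3. Fosb was at 7.73, 7.12 and 8.79 against 5.79, 5.45 and 7.22 CPM, a log2 fold change of -0.36 ± 0.19 that was not called and differed from that in undifferentiated cells by 0.83 ± 0.24 (adjusted p = 0.0172). Zfp36 differed by 0.31 ± 0.11 (edgeR adjusted p = 0.0402). The early response genes given here were picked by their p in undifferentiated cells, an effect that enters these differences. Jun measured 99.4, 98 and 94.8 CPM in differentiated controls and 242, 227 and 205 CPM with BIGH3, a rise of 1.21 ± 0.06 on the log2 scale where undifferentiated cells were at -0.20, and the difference of 1.40 ± 0.09 was called. Dusp1 (1.85 ± 0.14), Etv4 (2.06 ± 0.30) and Nfil3 (1.21 ± 0.11) differed in the same direction and Id2 (-0.85 ± 0.10) in the other. Gja1 and Tgfbi, flat in undifferentiated cells, differed by 0.75 ± 0.07 and 0.77 ± 0.08. The medium and the differentiated state cannot be told apart in these comparisons.

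**Figure D5:**
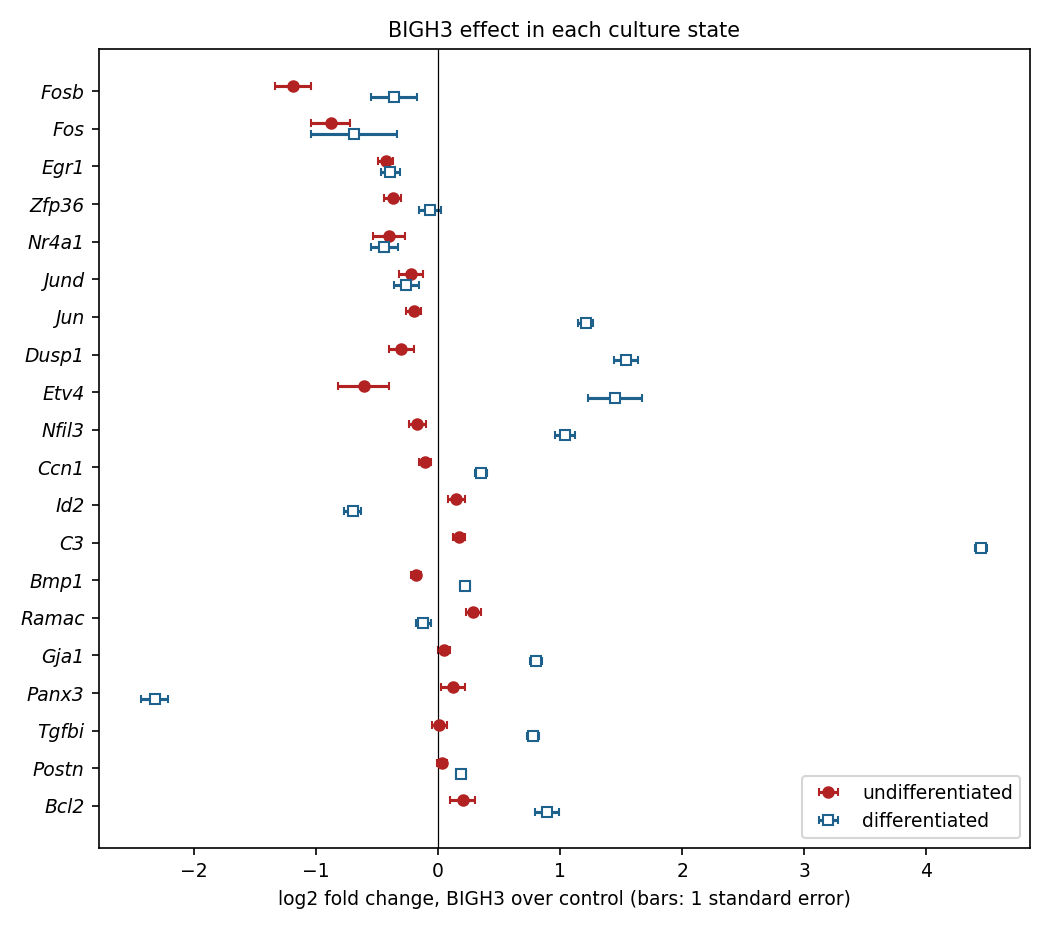
Log2 fold change of BIGH3 over control with its standard error for 20 named genes, in undifferentiated cells (red circles) and differentiated cells (blue squares). In undifferentiated cells all 20 lie between -1.19 and 0.29, while in differentiated cells they run from -2.32 for Panx3 to 4.45 for C3, and Egr1, Nr4a1 and Jund nearly coincide.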

How the data were processed

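The 12 RNA-seq libraries were deposited as 1 table each. Per the submitters' processing notes, FastQC, cutadapt, Salmon, StringTie and mm10 were used, with versions not given in the sources used here. Per the file headers, each deposited table holds the estimated counts of reads per transcript that the authors obtained, not normalized, and their TPM, with lengths in bases. The deposited file names carry a prefix other than MLO-Y4, and the identity of the cells was not tested.

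Of 147828 transcripts, 137063 (92.7%) matched GENCODE M21 (GRCm38) by identifier without version, and unmatched transcripts held 1.28% to 3.67% of reads. Estimated counts were summed per gene and rounded. All 12 libraries in 4 groups were fitted in edgeR 4.0.16 (R 4.3.3) with TMM factors, filterByExpr and the robust quasi-likelihood test, with Benjamini-Hochberg adjustment over all features and a threshold of 0.05. SE is the log2 fold change divided by the root of F. Alternatives used DESeq2 1.42.0, limma 3.58.1 on log2(TPM + 0.5) or log2(TPM + 0.05), other scalings and filters, a replicate block, length offsets and left-out libraries. The fitting step was tested on simulated data.

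Named were all called features and the transcripts of called genes, the 15 genes with the smallest p, the 8 largest differences each way without overlap (mean of at least 2 log2 CPM), a set of genes of gap junctions, BIGH3 and apoptosis, 12 early response genes and up to 3 members of each other list. Some genes under this rule are not reported here. Members and lists were chosen with earlier results of these data known.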

Additional observations from a re-analysis of the deposited data

Results flagged for a closer look

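Among the called genes, the 12 named early response genes (which include Fosb and Egr1), Gja1 and Tgfbi, the BIGH3 effect differed between differentiated and undifferentiated cells in 11. The edgeR test of that difference called 32.2% of all genes. All but Gja1 and Tgfbi were picked by their p in undifferentiated cells, an effect that enters the difference. Their share is therefore not comparable with that of all genes. Other named genes passed it too, such as C3 (4.27) and Panx3 (-2.44). Differences are given as the effect in differentiated minus that in undifferentiated cells, on the log2 scale. Among early response genes they were 0.83 for Fosb, 0.31 for Zfp36, 1.40 for Jun, 1.85 for Dusp1, 2.06 for Etv4, 1.21 for Nfil3, 0.46 for Ccn1 and -0.85 for Id2. Gja1 differed by 0.75 and Tgfbi by 0.77. For the antisense gene 3110045C21Rik the difference was -3.08, with 6 estimated reads over the undifferentiated controls.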

How the results depend on the processing

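The count of genes called in undifferentiated cells (3) was 8 with DESeq2, 21 without a low-count filter, 1 with the 3 libraries highest in liver transcripts left out, 5 with all 4 left out, 1 without robust fitting, 0 with the undifferentiated libraries alone (551 at an unadjusted p below 0.05, 8 by DESeq2 on all libraries), 1 and 0 on log2(TPM + 0.5) and log2(TPM + 0.05), and 1 with length offsets. Leaving out 1 library gave 0 to 3. The count of transcripts called (2) was 167 with DESeq2, 1 without the 3 libraries, and 18 and 28 on the TPM scales, and leaving out 1 library gave 0 to 9. The causes were not tested.

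Deviations of same-numbered libraries had correlations of -0.223, -0.0278 and 0.0336, and those of the other treated and control pairs ran from -0.175 to 0.177. With 3 libraries per group these values cannot decide whether the numbers pair the samples, and the labels do not state it. The replicate block called 3 genes, all lower. It ended the calls of 3110045C21Rik (edgeR adjusted p = 0.129), Tcf3-207 and Wnk1-206 (0.477 each) and called Fos (0.031). It gave 0 transcripts (1265 at an unadjusted p below 0.05) and 4669 genes whose effect differed between states, against 4730. That last count stayed within 1.5 times under every alternative run, at 4051 to 4693 with 1 library left out. Its split of 2378 higher and 2352 lower was 2604 and 1981 with library totals and 2183 and 1132 on log2(TPM + 0.5).

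Of 1458 alternative values for 59 single genes and transcripts, 1321 kept direction and side of the threshold, 61 lost a call, 20 gained one and 56 turned direction. The turned values were small except in weak features. Gja1 was -0.03 on both TPM scales, Postn -0.06 and Itgav -0.02. Postn was -0.00 with library totals. With 1 library left out, Gjb5 ran from -0.22 to 0.03, Itgb3 from -0.12 to 0.06 and Fosb-201 from -1.21 to 0.08. Gjc1 was -0.01 with library totals, -0.03 to 0.07 with 1 library left out, -0.03 and -0.06 without the 3 and 4 liver-bearing libraries and -0.04 by TPM. Tgfbi was -0.02 with library totals, -0.02 to 0.04 (-0.01 without BIGH3 3) with 1 library left out, -0.00 and -0.02 without the 3 and 4 liver-bearing libraries and -0.05 by TPM. Itgb3 was also 0.03 without control 3. Itgb5 was 0.07 without BIGH3 2, -0.07 without BIGH3 1, -0.01 without control 1, -0.03 without control 2, -0.02 with library totals, -0.03 and -0.10 without the 3 and 4 libraries and -0.01 by TPM. Itgb1 was -0.00 with DESeq2, median-of-ratios factors, the stricter filter and the undifferentiated libraries alone, -0.02 with library totals, -0.04 to 0.05 (-0.02 without BIGH3 1, -0.01 without control 2, -0.00 without any 1 differentiated library) with 1 library left out, -0.01 and -0.03 without the 3 and 4 libraries, -0.07 by TPM and -0.01 with length offsets. Fosb-206 was -0.02 with the block, -1.53 without BIGH3 2, 1.04 without control 3 and -0.31 without control 1. Depth limits the 3807 genes below a mean of 2 log2 CPM, where 8.48% had an interval within 1.5-fold.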

Other observations

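Genes of nuclear-encoded oxidative phosphorylation had every BIGH3 library above every control in 9 of 40 cases in undifferentiated cells, against 4.59% of all genes tested, and none was called. Cox6b1, of cytochrome c oxidase, measured 154, 156 and 153 CPM in controls and 167, 190 and 179 CPM with BIGH3 (log2 0.21 ± 0.07). The list's median was 0.04, and -0.01 on log2(TPM + 0.5). Spp1, the osteopontin gene, measured 1764, 1769 and 1743 CPM in controls and 1831, 1966 and 1965 CPM with BIGH3 (log2 0.13 ± 0.04) and was not called.

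Summed levels of 12 macrophage and osteoclast markers were 29.5 to 30.5 CPM in controls and 27.7 to 28.9 CPM with BIGH3, without overlap. Ctsk, the osteoclast protease, measured 2.81, 3.35 and 2.72 against 2.35, 2.67 and 2.61 CPM.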
